A study of Mus musculus with 9 samples.

Results

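The genes examined were the fibroblast growth factor (FGF) ligands Fgf1, Fgf2, Fgf7, Fgf10 and Fgf18, the receptors Fgfr1, Fgfr2, Fgfr3 and Fgfr4, and the receptor-like gene Fgfrl1. They were taken by symbol, each matched to 1 Ensembl gene, and make up 10 of the 55416 genes listed. Of these, 9 were among the 14879 genes with enough counts to be tested, each with counts in all 9 libraries, and Fgfr4 was not. RNA-Seq was done on 9 libraries of AdvSca1-SM cells, which are Sca1-expressing progenitors of the arterial adventitia that descend from smooth muscle cells. The cells were sorted as YFP+ Sca1+ from the carotid arteries and the arch and descending parts of the aorta. The donors were SM22α-Cre-YFP mice of both sexes, pooled, in which the smooth muscle promoter SM22α drives the Cre that marks the cells, and the sorted cells were subcultured before use. Each group had 3 libraries, all from cells that received 0.1% DMSO for 72 h. Stem cells received vehicle, TGF-β cells received 5 ng/mL TGF-β1, and Both cells received 5 ng/mL TGF-β1 with 50 μM PFI-3, a compound directed at the bromodomain of Brg1, a chromatin remodeler. The maintenance medium was αMEM-GlutaMAX with 10% FBS, 1 ng/mL basic FGF, which is the protein made from Fgf2, and 5 ng/mL EGF. Before stimulation, cells were growth arrested for 24 h in that medium with 0.1% FBS, and they were then moved to DMEM with 0.1% FBS, for which no FGF or EGF is named. The labels give the arrest step for all samples, while the study describes the Stem cells as grown in stem cell medium. With that reading, basal medium, serum, added FGF, added EGF and TGF-β1, and possibly the arrest step, changed together between Stem and TGF-β and cannot be told apart. TGF-β and Both differed in PFI-3.

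FGF ligands are secreted proteins that bind receptor tyrosine kinases together with heparan sulfate and start the Ras-ERK cascade, which then induces its own inhibitors such as the Sprouty proteins. Fgf7 and Fgf10 are known as mesenchymal ligands for a splice form of Fgfr2 that epithelial cells carry, whereas Fgf1, Fgf2 and Fgf18 act on receptor forms that mesenchymal cells carry. In arteries, FGF signaling is known to favor growth of smooth muscle cells and fibroblasts and to counter TGF-β signaling. The counts are per gene and do not separate receptor splice forms.

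Total counts per library lay between 35686291 and 47741128. Stem replicate 2 stood apart from the other Stem libraries in the gene ENSMUSG00000119584, for which the gene names used here give no symbol. This gene took 4.70% of the counts of Stem replicate 2, beside 0.364% and 0.477% in the other Stem libraries. In the remaining groups it took between 0.978% and 2.32%. For the members that passed 2-fold between Stem and TGF-β, the log2 fold change is therefore also given without Stem replicate 2. The labels mention hepatic tissue in the extraction protocol, but all 6 hepatocyte markers examined were at or under 3 counts in every library. Of 10 progenitor and adventitial fibroblast markers, 5 were lower in TGF-β than in Stem past 2-fold (Ly6a, which encodes Sca1, and Cd34, Pdgfra, Scara5 and Dpt), 4 were higher (Pi16, Col1a1, Pdgfrb and Gli1), and Thy1 did not pass. Gli1 was at or under 3 counts in every Stem library. Of 6 leukocyte markers, 4 (Ptprc, Adgre1, Cd3e and Cd79a) were at or under 3 counts in each group. The summed normalized count of that list nonetheless ranged from 19.6 to 41.9 over the Stem libraries, from 71.0 to 104 over the TGF-β libraries and from 152 to 156 over the Both libraries, mostly through Csf1r; its part in the results was not tested. The endothelial list of 6 genes summed to 115 to 249, 59.4 to 93.7 and 52.7 to 70.1, and its part was not tested either. Its genes did not move together. Emcn (mean 104, SD 65.6 in Stem, mean 8.27 in TGF-β) and Tek (45.7 and 18.3) fell past 2-fold from Stem to TGF-β. Cdh5 and Kdr were at or under 3 counts in Stem, and Kdr rose past 2-fold, to a mean of 26.1 in TGF-β. Vwf did not pass, and Pecam1 and Cdh5 were not tested. All values below are normalized counts, that is, counts scaled to a common library size, unless a level per kilobase of exon is named.

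The sequences before the start sites of Fgf7, Fgf10 and Fgf18 are shown because these were the member ligands that changed most between Stem and TGF-β. RefSeq promoters on GRCm38.p6 were found for 8 of the 10 members, in 9 windows of 250 bases. Matches to GGGCGG (the GC box) or to CAGAC (a short Smad-binding motif), on either strand, are in capitals.
Fgf7 (chr2:126034408-126034657, + strand): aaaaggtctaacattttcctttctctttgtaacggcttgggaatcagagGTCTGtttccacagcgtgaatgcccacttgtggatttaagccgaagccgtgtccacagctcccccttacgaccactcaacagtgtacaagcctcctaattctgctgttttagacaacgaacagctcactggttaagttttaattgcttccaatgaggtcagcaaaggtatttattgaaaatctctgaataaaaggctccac
Fgf10 (chr13:118714449-118714698, + strand): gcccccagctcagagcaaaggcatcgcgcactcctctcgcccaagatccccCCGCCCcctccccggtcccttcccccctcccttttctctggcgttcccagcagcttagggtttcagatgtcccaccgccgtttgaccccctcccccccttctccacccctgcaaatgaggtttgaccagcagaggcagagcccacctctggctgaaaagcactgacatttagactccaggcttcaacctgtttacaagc
Fgf18 (chr11:33147401-33147650, - strand): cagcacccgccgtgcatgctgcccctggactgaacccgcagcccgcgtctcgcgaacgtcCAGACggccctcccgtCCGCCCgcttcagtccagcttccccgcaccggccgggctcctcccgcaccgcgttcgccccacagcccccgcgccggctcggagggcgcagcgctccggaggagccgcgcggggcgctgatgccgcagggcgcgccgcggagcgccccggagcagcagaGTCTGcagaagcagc
The Fgf7 window had 43.6% G and C, 6 CpG dinucleotides and 1 CAGAC, 201 bases before the start. The Fgf10 window had 61.2% G and C, 8 CpG dinucleotides, 1 GGGCGG and no CAGAC. The Fgf18 window was the richest in CpG of the 9, with 77.2% G and C, 37 CpG dinucleotides, 1 GGGCGG and 2 CAGAC, at 190 and 15 bases before the start. The Fgfr2 window (chr7:130266809-130267058, - strand) had 44.0% G and C and 2 CpG dinucleotides and held neither motif. Over 32851 RefSeq promoters of the same length the medians were 52.4% G and C and 6 CpG dinucleotides, and 32.7% held GGGCGG and 42.2% held CAGAC. The motifs TGANTCA (AP-1) and TATAAA, held by 6.7% and 12.4% of all promoters, were in none of the 9 windows. These matches describe letters in the windows and were not tied to the counts by a test.

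Between Stem and TGF-β, the ligands Fgf7 and Fgf10 and the receptors Fgfr1 and Fgfr2 fell, and the ligand Fgf18 rose. In such bulk cultures, fewer cells with a message and less of it per cell cannot be told apart. Of the 9 members tested, 5 passed an adjusted p of 0.05 with a change over 2-fold (edgeR's quasi-likelihood test), beside 25.1% of all genes tested. Fgf18 was the 1 that was higher in TGF-β, beside 10.6% of all genes, and Fgf7, Fgf10, Fgfr1 and Fgfr2 were the 4 that were lower, beside 14.5%. At an adjusted p of 0.05 without the fold minimum, 8 members passed, beside 75.0% of all genes; 2 were higher (37.3% of all genes) and 6 lower (37.7%). The same 8, all but Fgfr3, showed no overlap between the Stem and TGF-β libraries, beside 76.8% of all genes. Most of the genes tested did the same, so neither count sets the members apart. The median log2 fold change of the 9 members was -0.82, and that of all genes tested was 0.00.

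Fgf7, keratinocyte growth factor, was counted at 9129, 8065 and 9087 in the Stem libraries, at 1683, 1420 and 1600 in TGF-β, and at 2484, 2043 and 2432 in Both. Every TGF-β library lay below every Stem library, and the Both libraries lay between. Fgf7 was 5.59-fold lower in TGF-β than in Stem (log2 fold change -2.48, SE 0.0839, edgeR adjusted p = 7.93e-11). With Stem replicate 2 left out the log2 fold change was -2.53.

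Fgf10, the closest relative of Fgf7 among the members and a ligand needed for lung and limb outgrowth, was counted at 6920, 6420 and 7327 in Stem. The TGF-β libraries held 572, 489 and 641, and the Both libraries 1204, 850 and 994. No library of one group overlapped another group. Fgf10 had the largest fold change of the members, 12.1-fold lower in TGF-β than in Stem (log2 fold change -3.60, SE 0.120, edgeR adjusted p = 7.21e-11), and -3.64 without Stem replicate 2. In the GENCODE annotation, 2.7% of the exon bases of Fgf10 overlap the antisense gene Gm16263, which had 0 to 15 counts per library; reads from such pairs cannot be told apart where counting ignores strand, and the strand setting is not given in the sources used here.

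Fgf18, a ligand known from bone, cartilage and lung development, went the other way. It was counted at 84.8, 136 and 97.4 in Stem, at 1164, 1188 and 1154 in TGF-β, and at 918, 992 and 858 in Both. The TGF-β libraries were tightly grouped and all above the Both libraries, which were all far above Stem. Fgf18 was 11.0-fold higher in TGF-β than in Stem (log2 fold change 3.46, SE 0.116, edgeR adjusted p = 7.6e-11), and the log2 fold change was 3.69 without Stem replicate 2, the highest of the Stem libraries.

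Fgf2, basic FGF, changed least of the abundant member ligands. Its counts were 5732, 5839 and 5766 in Stem, 7018, 6477 and 7052 in TGF-β, and 7179, 6421 and 7279 in Both. The TGF-β libraries all lay above the Stem libraries, by 1.19-fold (log2 fold change 0.25, SE 0.0515, edgeR adjusted p = 9.35e-04). This rise did not pass when libraries were scaled by total counts (log2 fold change 0.13, adjusted p = 0.0518). The gene Nudt6 lies on the opposite strand and shares 9.4% of the exon bases of Fgf2, but had only 51 to 70 counts per library.

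Fgf1, acidic FGF, was near the bottom of the tested range. It was counted at 39.8, 45.6 and 41.1 in Stem, at 23.7, 26.4 and 21.5 in TGF-β, and at 24.3, 31.6 and 14.0 in Both. The TGF-β libraries lay below the Stem libraries, 1.76-fold lower (log2 fold change -0.82, SE 0.256, edgeR adjusted p = 0.0117), whereas the Both libraries spread across the TGF-β range.

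**Figure D1:**
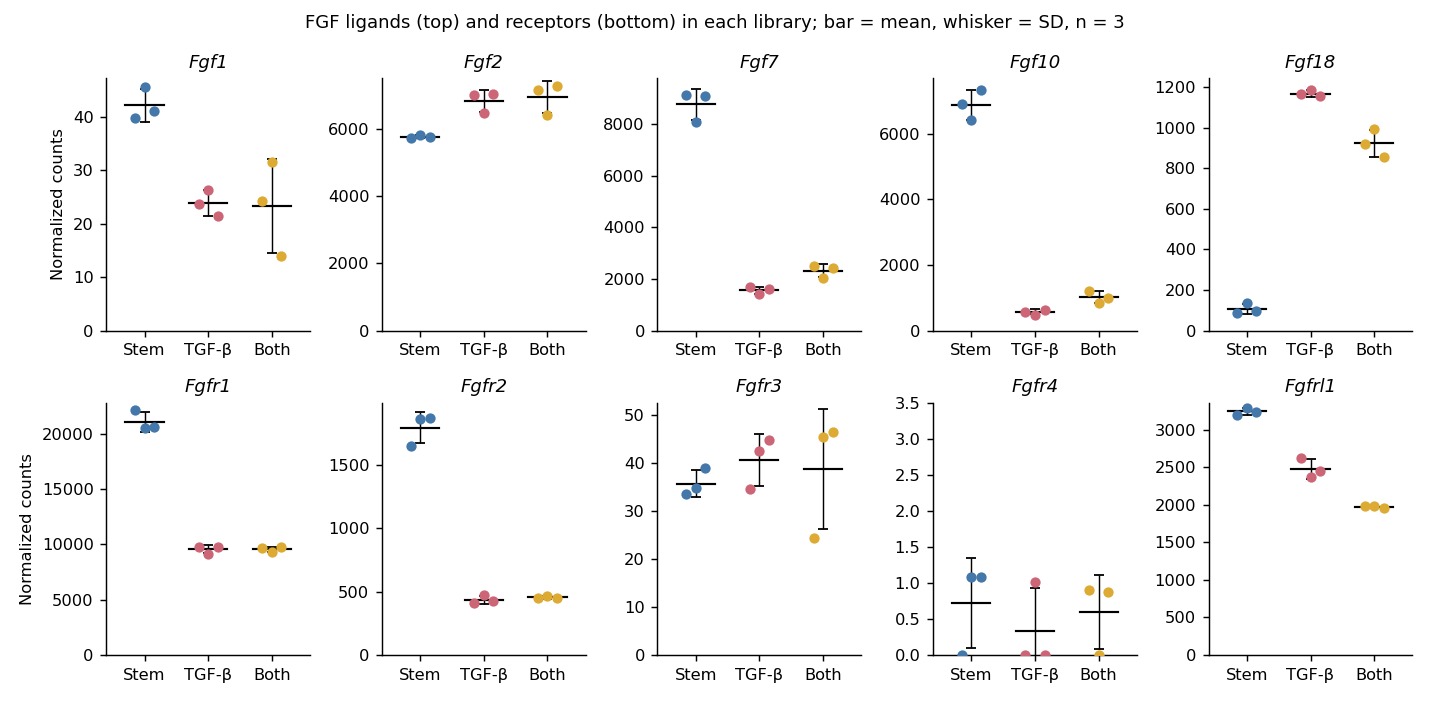
Normalized counts (vertical axes, each starting at 0) of the 10 FGF genes in the 3 Stem, 3 TGF-β and 3 Both libraries; each point is a library, the bar is the mean and the whisker the SD, n = 3. Fgf7 and Fgf10 drop from Stem to TGF-β and sit slightly higher in Both, Fgf18 goes from between 84.8 and 136 in Stem to between 1154 and 1188 in TGF-β, and Fgfr1 and Fgfr2 are at like levels in TGF-β and Both.

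Among the receptors, Fgfr1 and Fgfr2 fell between Stem and TGF-β, and Fgfr3 did not pass the test. Fgfr1, the main FGF receptor of mesenchymal cells, was counted at 22177, 20531 and 20645 in Stem, at 9792, 9137 and 9757 in TGF-β, and at 9638, 9326 and 9732 in Both. The Stem libraries were all above the rest, and the TGF-β and Both libraries covered the same range. It was 2.21-fold lower in TGF-β than in Stem (log2 fold change -1.14, SE 0.0442, edgeR adjusted p = 2.64e-10), and -1.16 without Stem replicate 2.

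Fgfr2, the receptor whose epithelial splice form binds Fgf7 and Fgf10, was counted at 1653, 1861 and 1868 in Stem, at 412, 470 and 424 in TGF-β, and at 447, 467 and 447 in Both. Again Stem was separate from both other groups, which overlapped. Fgfr2 was 4.12-fold lower in TGF-β (log2 fold change -2.04, SE 0.0665, edgeR adjusted p = 5.72e-11), the largest change among the receptors, and -2.01 without Stem replicate 2. It shares 3.0% of its exon bases with Ctbp2 on the same strand, a gene with 1475 to 1780 counts per library.

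Fgfrl1, which binds FGFs but lacks the kinase domain of the other receptors, was counted at 3197, 3290 and 3236 in Stem, at 2624, 2364 and 2452 in TGF-β, and at 1978, 1988 and 1954 in Both. The 3 groups formed separate steps, with Both lowest. Fgfrl1 fell by 0.39 on the log2 scale from Stem to TGF-β (SE 0.0422, edgeR adjusted p = 4.02e-06), which is under 2-fold. Fgfr3 was counted at 33.5, 34.8 and 38.9 in Stem, at 34.5, 42.6 and 44.9 in TGF-β, and at 24.3, 45.4 and 46.5 in Both, so that all groups overlapped. Its log2 fold change between Stem and TGF-β was 0.19, with a 95% interval from -0.35 to 0.73 (edgeR adjusted p = 0.496). Fgfr4 had 0 or 1 count in every library, under the limit of 3 counts, and no difference was detectable at this depth.

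**Figure D2:**
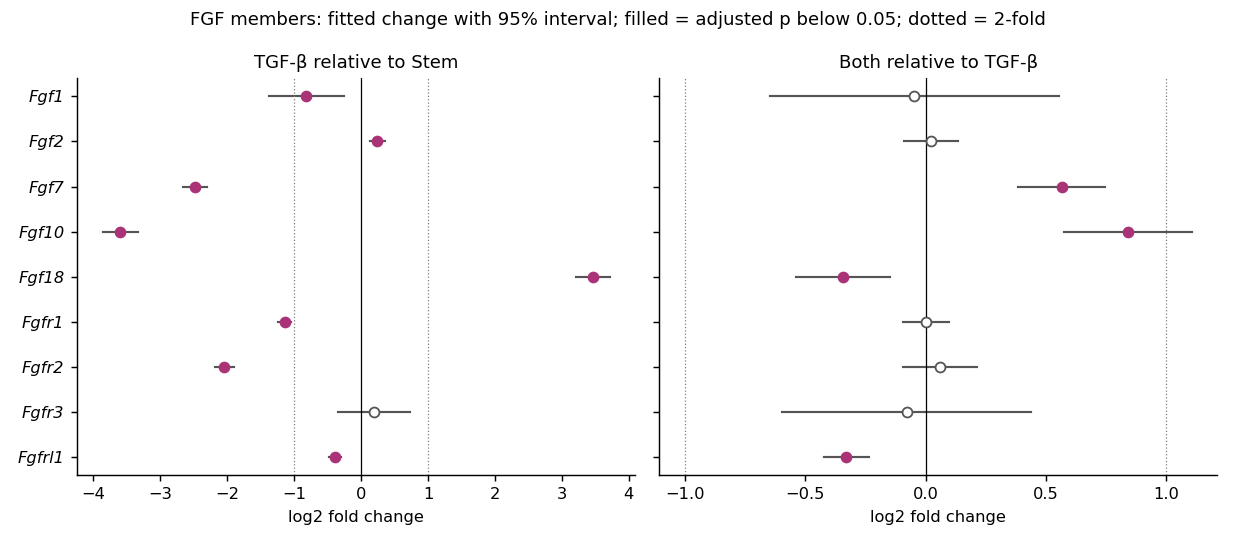
Fitted log2 fold changes (horizontal axes) of the 9 tested FGF genes, TGF-β relative to Stem on the left and Both relative to TGF-β on the right on a narrower axis; points are edgeR estimates, lines their 95% intervals, filled points an adjusted p below 0.05, and dotted lines 2-fold. On the left Fgf10 at -3.60 and Fgf18 at 3.46 lie farthest from 0, and on the right no gene passes 2-fold, with Fgf10 at 0.84 the farthest.

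To compare levels between genes, normalized counts were divided by exon length. On this per-kilobase scale, the order of the ligand levels in Stem was Fgf7 (2697), Fgf10 (1497), Fgf2 (852), Fgf18 (89.3) and Fgf1 (7.72), and no neighbors overlapped between libraries. In TGF-β, Fgf2 (1010) and Fgf18 (985) came first and overlapped each other, followed by Fgf7 (483), Fgf10 (123) and Fgf1 (4.37). In Both, Fgf2 (1026) was followed by Fgf18 (777) and Fgf7 (714), which overlapped and changed places when the longest transcript was used as the length, and then by Fgf10 (221) and Fgf1 (4.27).

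Fgf7 and Fgf10, which made up 52.4% ± 1.29 and 29.1% ± 0.678 (SD, n = 3) of the summed member ligand level per kilobase in Stem, were thus at 18.5% ± 1.01 and 4.73% ± 0.513 in TGF-β. The share of Fgf18 went from 1.75% ± 0.528 to 37.8% ± 1.84, and that of Fgf2 from 16.6% ± 0.967 to 38.8% ± 0.568, although the Fgf2 counts themselves rose only slightly. The summed ligand level per kilobase was 5144 ± 248 in the Stem libraries, 2605 ± 87.8 with TGF-β1 alone and 2743 ± 132 with PFI-3 as well. None of these shares overlapped between Stem and TGF-β, and each gave p = 0.1 in an exact two-sided permutation test, the smallest that 3 against 3 libraries allow (0.133 after Benjamini-Hochberg adjustment over 36 such tests).

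The receptor order per kilobase in Stem was Fgfr1 (2139), Fgfrl1 (1165), Fgfr2 (174), Fgfr3 (4.99) and Fgfr4 (0.204). In TGF-β, Fgfr1 (968) and Fgfrl1 (891) overlapped, and Fgfr2 was at 42.1 and Fgfr3 at 5.68. In Both, Fgfr1 (969) and Fgfrl1 (709) were apart again, with Fgfr2 at 43.9 and Fgfr3 at 5.41. The kinase-lacking Fgfrl1 made up 33.5% ± 1.05 (SD, n = 3) of the summed receptor level in Stem and 46.7% ± 0.854 after TGF-β1, with 41.1% in Both, and Fgfr1 made up 61.4%, 50.8% and 56.1%. Fgfr2 held 4.99% of the Stem receptor level, 2.22% of that in TGF-β and 2.54% of that in Both. These shares, and the overlap of Fgfr1 with Fgfrl1 in TGF-β, depend on the length used. The exon bases of Fgfr1 come to 9875, but its longest transcript has 5041. By the longest transcript, Fgfrl1 made up 23.2%, 34.7% and 29.7% of the receptor level in Stem, TGF-β and Both. Fgfr1 then made up 69.9%, 61.8% and 66.4%.

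**Figure D3:**
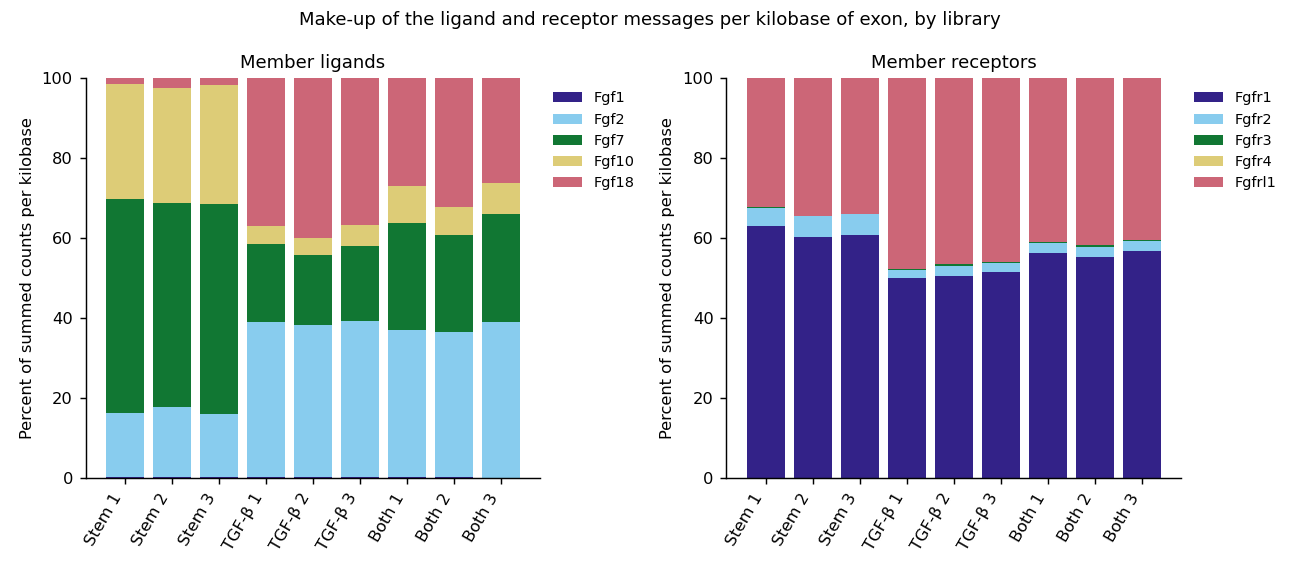
Share (percent, vertical axes from 0 to 100) of each member ligand, left, and receptor, right, in the summed normalized counts per kilobase of exon, with 1 bar for each of the 9 libraries. Fgf7 and Fgf10 fill most of the Stem ligand bars, while Fgf2 and Fgf18 fill most of the TGF-β bars; Fgfr1 is the largest receptor share in all 9 libraries.

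With PFI-3 added to TGF-β1, Fgf7 and Fgf10 rose and Fgf18 and Fgfrl1 fell, all by under 2-fold. By edgeR and by DESeq2, 0 members passed 2-fold between TGF-β and Both, beside 0.632% of the genes tested (0.161% higher and 0.470% lower in Both). At an adjusted p of 0.05 alone, 4 of the 9 members passed by edgeR, beside 8.92% of all genes, and 4 had an unadjusted p below 0.05. Fgf7 and Fgf10 were the 2 that were higher in Both, beside 3.54% of all genes, and Fgf18 and Fgfrl1 were the 2 that were lower, beside 5.38%. These 4 genes were also those whose TGF-β and Both libraries did not overlap, beside 32.7% of all genes. Fgf10 was 1.79-fold higher (log2 fold change 0.84, SE 0.122, adjusted p = 0.00127) and Fgf7 1.48-fold higher (0.57, SE 0.0828, adjusted p = 0.00136) in Both than in TGF-β by edgeR. Both genes remained far below Stem, by 6.77-fold and 3.77-fold. Fgfrl1 was 1.26-fold lower in Both (log2 fold change -0.33, SE 0.0426, edgeR adjusted p = 6.13e-04), with Both at 1954 to 1988 and TGF-β at 2364 to 2624.

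Fgf18 was 1.27-fold lower in Both than in TGF-β (log2 fold change -0.34, SE 0.0891, edgeR adjusted p = 0.0341). That call was lost without any of 6 libraries (Stem replicate 3, each TGF-β replicate, and Both replicates 1 and 3), with adjusted p between 0.0578 and 0.133 and a log2 fold change that stayed between -0.40 and -0.29 over all libraries left out in turn. Fgfr1, Fgfr2, Fgf2, Fgf1 and Fgfr3 did not pass. On the log2 scale, the 95% interval of the change with PFI-3 was -0.10 to 0.10 for Fgfr1, -0.10 to 0.21 for Fgfr2 and -0.09 to 0.14 for Fgf2. For the thinly counted Fgf1 and Fgfr3 the intervals were wider, -0.65 to 0.55 and -0.59 to 0.44.

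Between Stem and Both, which differ in medium, TGF-β1 and PFI-3, 5 of the 9 members passed 2-fold by edgeR, beside 22.8% of all genes. Of these, 1 was higher in Both, beside 9.55%, and 4 were lower, beside 13.2%. The adjusted p alone was passed by 8 members, beside 73.3% of all genes (2 higher and 6 lower, beside 36.6% each way), and 8 showed no overlap, beside 74.7%. The log2 fold changes in Both relative to Stem were -2.76 for Fgf10, -1.92 for Fgf7, -1.98 for Fgfr2, -1.14 for Fgfr1 and 3.12 for Fgf18. Fgfrl1 fell by 0.72 on the log2 scale (SE 0.0425, edgeR adjusted p = 1.51e-08), and Fgf2 rose by 0.27 (adjusted p = 4.99e-04). The comparisons share the Stem, TGF-β or Both libraries and are not independent of each other.

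The patterns of Fgf10 and Fgfr2, the member ligand and receptor with the largest changes between Stem and TGF-β among those with at least 100 mean normalized counts, were followed in all genes by the correlation of log2 normalized counts over the 9 libraries. The gene most like Fgf10 was Fgf7 (Pearson r = 0.9982), followed by Gria4, a glutamate receptor subunit (0.9978), and Inhba, which encodes an activin subunit (0.9975). The genes most like Fgfr2 were Lifr, the receptor of leukemia inhibitory factor (0.9990), Clec2d (0.9990) and Fam13c (0.9988). These libraries share the step between Stem and the other groups, and 1799 and 2188 genes had r over 0.95 with Fgf10 and Fgfr2.

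Other FGF genes were scarce. Of 17 further family members, 4 were tested, and the highest count of any untested one in a library was 12, for Fgf13. Between Stem and TGF-β, 3 passed 2-fold, beside 25.1% of all genes, and 1 (Fgf11) passed the adjusted p alone; all 3 are below the 100 mean normalized counts set for naming a gene and were named after their values were seen. They passed the count filter through the groups where they were high, so their count is no support for a change of the family. Fgf21, a metabolic hormone, had 0 counts in all Stem libraries, which allows up to 3 counts in each, and 57.7 ± 6.63 (SD, n = 3) normalized counts in TGF-β, at least 17.7-fold higher. Fgf23, the phosphate hormone, was at 75.4, 64.1 and 117 in Stem and at 1 or 2 counts in TGF-β, at least 26.4-fold lower, and at 4 to 11 counts in Both. Fgf14, an intracellular relative that binds sodium channels, was at 21.0 ± 3.44 in Stem and had 1 to 3 counts in TGF-β, which puts it lower by a factor of at least 6.5. By edgeR, 0 of the 4 passed between TGF-β and Both, with 1 (Fgf23) at an unadjusted p below 0.05. DESeq2, which gave an adjusted p for 13504 genes in this comparison, also called 0 of the list, with 2 at an unadjusted p below 0.05. The klotho co-receptors Kl and Klb, which hormone FGFs use, had 0 to 2 counts in every library.

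Genes known to be induced by FGF receptor signaling, or to restrain it, fell in larger number than they rose. With the reading given in the opening, added FGF, added EGF and serum changed together between these groups and cannot be told apart. Of 22 feedback and target genes, 21 were tested (Spry3 had no matching identifier), and between Stem and TGF-β 10 passed 2-fold: Lrig1 rose, and Spry1, Spry2, Spry4, Spred1, Dusp6, Etv1, Etv4, Etv5 and Phlda1 fell. The 10 stand beside 25.1% of all genes past 2-fold (10.6% higher and 14.5% lower). At the adjusted p alone 7 were higher and 13 lower, beside 37.3% and 37.7% of all genes, and the median log2 fold change of the list was -0.69, beside 0.00 for all genes. Etv1, an Ets factor, was counted at 2701, 2757 and 2792 in Stem, at 238, 185 and 217 in TGF-β and at 285, 202 and 262 in Both, and was 12.9-fold lower in TGF-β (log2 fold change -3.69, SE 0.104, edgeR adjusted p = 1.6e-11). Spry2, a Sprouty inhibitor of the Ras-ERK cascade, was counted at 7092, 7444 and 7751 in Stem and at 854, 870 and 818 in TGF-β, 8.77-fold lower (log2 fold change -3.13, SE 0.0486, edgeR adjusted p = 2.03e-13). Dusp6, a phosphatase that removes phosphate from ERK, was at 1343, 1814 and 1460 in Stem and at 392, 362 and 386 in TGF-β (log2 fold change -2.02, SE 0.0985, edgeR adjusted p = 2.21e-09). Those 3 genes showed no overlap between Stem and TGF-β.

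Not all of the feedback list went down. Fosl1 (0.97), Ier3 (0.78), Myc (0.67), Il17rd (0.52), Dusp4 (0.30) and Spred3 (0.28) were higher in TGF-β than in Stem on the log2 scale. Dusp5 (-0.24) did not pass. Fosl1 passed 2-fold without Stem replicate 1, Stem replicate 3 or TGF-β replicate 2. Etv4, with 92.5 ± 15.4 in Stem (SD, n = 3), did not pass 2-fold without Stem replicate 2 or without TGF-β replicate 1. Lrig1, at 1.01, lay at the 2-fold line and did not pass it without Stem replicate 3, when libraries were scaled by total counts, or when genes were kept by a mean of at least 10 counts.

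With PFI-3, 0 of the feedback genes passed 2-fold by edgeR or DESeq2, and 8 of 21 passed the adjusted p alone, beside the 8.92% of all genes. Spry2 (log2 fold change 0.45) and Ier3 (0.84) were higher in Both than in TGF-β, whereas Ccnd1 (-0.92), Spry1 (-0.30), Etv5 (-0.41), Etv4 (-0.99), Il17rd (-0.36) and Myc (-0.33) were lower. Spry1 and Spry2, which both fell between Stem and TGF-β, thus moved in opposite directions with PFI-3. Ccnd1, cyclin D1, was at 9523, 11454 and 10384 in Stem, 5394, 5867 and 5361 in TGF-β, and 2751, 3188 and 2865 in Both, 1.89-fold lower at each step (edgeR adjusted p = 1.59e-07 and 2.81e-05). Ier3, an immediate early gene, was at 2138, 2043 and 2130 in Both beside 1075, 1211 and 1236 in TGF-β (log2 fold change 0.84, SE 0.0788, edgeR adjusted p = 8.23e-05). The calls of Etv4 and Myc between TGF-β and Both were lost without 6 and 5 single libraries, with adjusted p up to 0.182 and 0.163, and Etv4 passed 2-fold without TGF-β replicate 1.

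**Figure D4:**
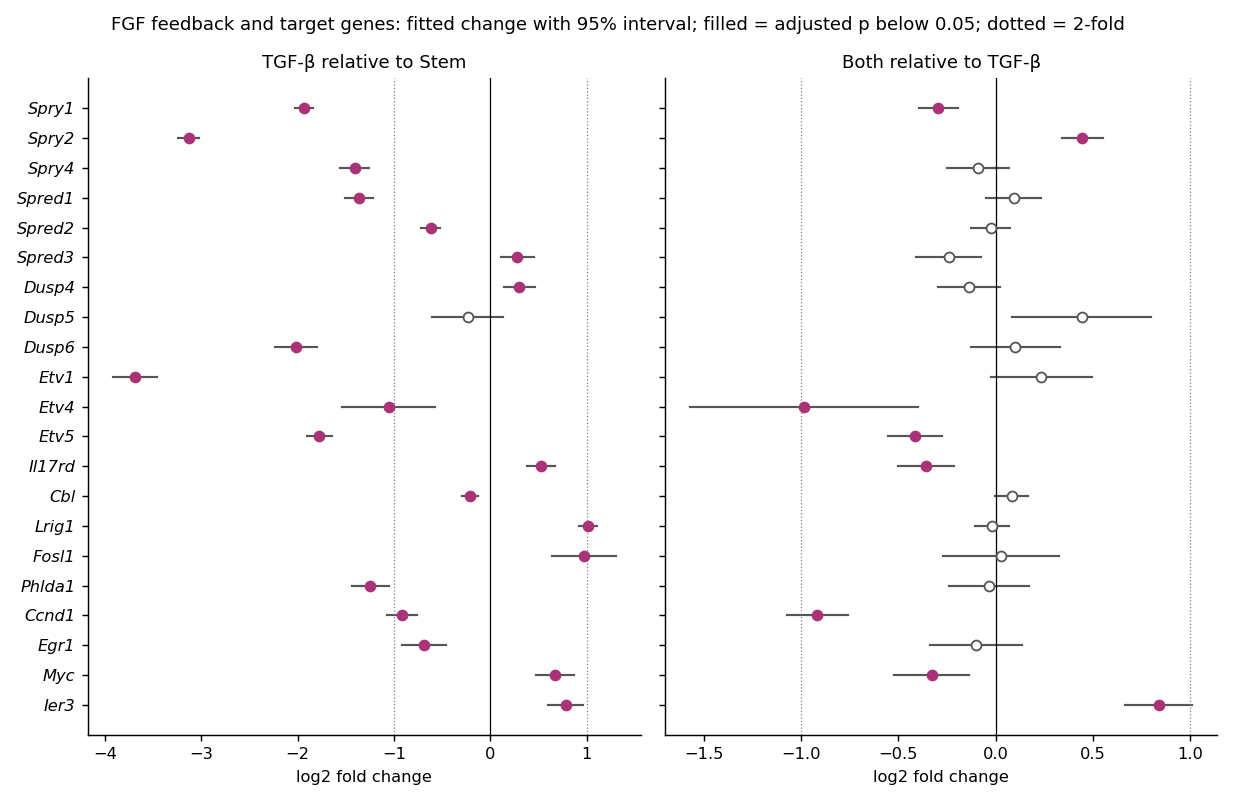
Fitted log2 fold changes (horizontal axes, of different width) of the 21 tested FGF feedback and target genes, TGF-β relative to Stem on the left and Both relative to TGF-β on the right; points are edgeR estimates, lines 95% intervals, filled points an adjusted p below 0.05, and dotted lines 2-fold. Etv1 at -3.69 and Spry2 at -3.13 are lowest on the left; on the right Etv4 at -0.99 and Ccnd1 at -0.92 lie near one dotted line and Ier3 at 0.84 nears the other.

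The shared adaptors and kinases downstream of FGF receptors mostly changed by under 2-fold. Of 22 genes, all tested, 5 were higher and 13 lower in TGF-β than in Stem at the adjusted p alone. Of all genes, 37.3% were higher and 37.7% lower, 75.0% in total. Past 2-fold were 2, beside 25.1% of all genes: Hras, a Ras GTPase, rose (982 ± 51.0 to 2348 ± 61.5, SD, n = 3; log2 fold change 1.26, edgeR adjusted p = 1.52e-10), and Rps6ka1, an ERK-activated kinase, fell (132 ± 9.34 to 42.4 ± 6.41; -1.64, adjusted p = 1.75e-06). The median log2 fold change of the list was -0.28, beside -0.003 for all genes. Between TGF-β and Both, Rps6ka1 was higher (0.74, edgeR adjusted p = 0.0204) and the adaptor Shc1 lower (-0.19, adjusted p = 0.00575), beside 8.92% of all genes, and 20 genes did not pass. The call of Rps6ka1 was lost without TGF-β replicate 1, TGF-β replicate 2 or Both replicate 3.

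Cell surface proteins that carry FGFs or bind their receptors moved in both directions. Of 17 such genes 13 were tested, and 6 passed 2-fold between Stem and TGF-β, beside 25.1% of all genes. Gpc1, a glypican, rose from 1550 ± 133 to 5950 ± 149 (SD, n = 3; log2 fold change 1.94, edgeR adjusted p = 1.53e-11), and Flrt2, a membrane protein with a fibronectin domain, rose by 1.14. Sdc4, a syndecan, fell from 13613 ± 1022 to 3635 ± 45.4 (log2 fold change -1.90, edgeR adjusted p = 1.6e-11). The others that fell were Gpc3 (-3.23), Flrt1 (-1.35) and Gpc2 (-1.01), of which Gpc2 lay at the 2-fold line. Gpc2 did not pass it with a replicate block, with a prior count of 2, or without Stem replicate 1, Stem replicate 2 or TGF-β replicate 1, which left 5 genes. Between TGF-β and Both, Flrt2 (0.27) and Sdc4 (0.22) were higher and Gpc6 (-0.46), Gpc4 (-0.37), Sdc3 (-0.22) and Fgfbp3 (-0.42) lower, 6 genes beside 8.92% of all genes. The calls of Flrt2, Sdc4 and Fgfbp3 were each lost without 5 or 6 single libraries, with adjusted p up to 0.106, 0.0906 and 0.0897.

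Enzymes that build or cut heparan sulfate, the chain that holds FGFs to their receptors, also moved both ways. Of 21 genes 17 were tested, and 6 passed 2-fold between Stem and TGF-β, beside 25.1% of all genes. Hs3st3b1 fell from 262 ± 25.3 to 24.0 ± 7.22 (SD, n = 3; log2 fold change -3.43, edgeR adjusted p = 5.92e-09), and Hs3st1 from 304 ± 56.4 to 34.0 ± 12.7 (-3.17, adjusted p = 3.61e-07). Both encode enzymes that add sulfate at the 3-O position. Hs3st3a1 (-1.81) and the heparan sulfate-cutting enzyme Hpse (-1.67) fell as well. Sulf1, which removes 6-O-sulfate, rose by 1.42 on the log2 scale, and Extl1 by 2.38. Ext1 rose from 6448 to 12833 (log2 fold change 0.993), just under the 2-fold line. It passed that line by DESeq2 and with no count filter. It also passed without Stem replicate 2, TGF-β replicate 2, Both replicate 1 or Both replicate 2. Hpse was the 1 gene of the list that passed between TGF-β and Both (0.45, edgeR adjusted p = 0.044), beside 8.92% of all genes, and this call was lost without any of 6 single libraries, with adjusted p up to 0.148. DESeq2 called 3 genes there, adding Sulf1 (-0.14) and Hs6st2 (-0.23).

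The choice between receptor splice forms is made by RNA-binding proteins, of which 9 of 10 listed genes were tested. Esrp1, the main driver of the epithelial forms, had 0 or 1 count in every library. Its relative Esrp2 was at 79.6, 70.6 and 79.0 in Stem, and at 159, 119 and 154 in TGF-β (log2 fold change 0.91, edgeR adjusted p = 7.38e-05). Ptbp2, a splicing repressor, fell from 890 ± 46.3 to 392 ± 27.7 (SD, n = 3; log2 fold change -1.18, edgeR adjusted p = 1.15e-07), and Rbfox1 fell by 2.08 on the log2 scale; these 2 were the genes of the list past 2-fold, beside 25.1% of all genes. Between TGF-β and Both 0 genes of the list passed by edgeR, with 3 at an unadjusted p below 0.05, and DESeq2 called 1, Mbnl2 (log2 fold change 0.25, adjusted p = 0.0304). Epithelial markers were scarce: Epcam, Cdh1 and Krt8 were at or under 3 counts in every library, and the 6 markers together summed to at most 13.2 normalized counts.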

How the data were processed

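What the authors deposited is a table of raw counts of reads on each Ensembl gene, with a column for each library and no scaling. The labels' processing notes name HISAT2 2.2.1, SAMtools 1.13, HTSeq 0.11.3 and GRCm39, whereas the paper's methods name Flexbar and STAR; which made the counts, and the strand setting, are not given in the sources used here. RNA came from a stranded, ribosomal RNA-depleted kit.

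Counts were analyzed in R 4.3.3. After the filterByExpr filter and TMM scaling, 14879 genes entered a single fit to the 9 libraries (group as the only term) and the quasi-likelihood test of edgeR 4.0.16 and Benjamini-Hochberg adjustment over all of them. A gene passed 2-fold at an adjusted p below 0.05 and a change on the log2 scale beyond -1 or 1, the thresholds of the study, which used DESeq2. Fold changes give the second group relative to the first, with a prior count of 0.125. Normalized counts are scaled to 41184338; 3 counts were the limit of detection. The common dispersion was 0.00376, a coefficient of variation of 6.13% between replicates. Total counts were 35686291 to 47741128. The study calls the replicates independent; p-values measure the spread between these libraries.

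Exon lengths and overlaps came from GENCODE M21 (GRCm38) and promoters from RefSeq. Of 163 listed symbols 162 matched 1 Ensembl gene; Spry3 did not. On simulated counts with 100 genes changed by 0.75 on the log2 scale, edgeR called 96 at the adjusted p between TGF-β and Both. Replicates differed by more than sampling noise in every pair. Same-numbered libraries of different groups correlated between -0.0539 and 0.196, and the main fit did not use the numbers as pairs. With a block for the number, more genes passed the adjusted p between TGF-β and Both, as given in the closing section.

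Members and gene lists were chosen with earlier results of these data known. Named beside the members were, per list, up to 3 genes with the largest change past 2-fold between Stem and TGF-β (at least 100 mean normalized counts, no overlap) and up to 3 with the smallest adjusted p between TGF-β and Both; others are named to complete a count and were chosen after their values were seen. The alternatives were DESeq2 1.42.0, DESeq2 size factors or total counts as scaling, other count filters, a fit to the 6 libraries of a comparison, a prior count of 2, a block for the replicate number, the longest transcript as length, and leaving out each library.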

Additional observations from a re-analysis of the deposited data

How the results depend on the processing

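The count of members past 2-fold was 5 (Stem against TGF-β) and 0 (TGF-β against Both) under every alternative and without each library, and 5 to 6 between Stem and Both, the added gene being Fgf1 without Both replicate 2; 8 of 9 members passed the adjusted p between Stem and TGF-β except under total counts, where Fgf2 (0.13, adjusted p = 0.0518) did not. Scaling by total counts put the median of all tested genes in that comparison at -0.12 on the log2 scale. Changes near 0 turned direction. Between TGF-β and Both, Fgfr1 was at -0.0022 under DESeq2 and at -0.0017 under DESeq2 size factors. With single libraries left out it ran from -0.032 to 0.017, Fgf1 from -0.32 to 0.22, Fgf2 from -0.017 to 0.076 and Fgfr3 from -0.24 to 0.17, and Fgfr3 between Stem and Both from -0.042 to 0.37; the cause was not tested.

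Of the other FGF genes, 5 passed 2-fold between Stem and TGF-β with no count filter, which adds Fgf12 and Fgf16 to the genes tested, and 3 to 4 with a library left out. DESeq2 gave 4, adding Fgf12, and a filter by a mean of at least 10 counts gave 2, without Fgf14. Between TGF-β and Both, 1 (Fgf23) passed with no filter and 1 (Fgf23) under the replicate block, beside 0. The feedback list gave 0 to 1 with a library left out, the 1 being Etv4. By the longest transcript, Fgf7 made up 54.4%, 19.8% and 27.6% of the ligand level in Stem, TGF-β and Both, and Fgfr1 69.9%, 61.8% and 66.4% of the receptor level, since the lengths differ.

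Of all genes, 1327 passed the adjusted p between TGF-β and Both, but 2309 with the replicate block, 2310 with the 6 libraries alone and from 639 to 2193 with a library left out; 94 passed 2-fold, and 163 with no filter. The block left the member counts as they were. Same-numbered libraries correlated over 0.1 in 4 of 9 pairs. These were replicate 2 in each pair of groups (0.166, 0.196 and 0.139) and replicate 1 of Stem and TGF-β (0.11). Of 9 comparisons of a library with the libraries of another group, the same 4 were highest with the library's own number. Fgfr4 and 13 other FGF genes were left untested by the count filter; with no filter, all 10 members and 12 of the 17 other FGF genes were tested.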
